A study of Mus musculus with 16 samples.

Results

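HR line 6 is 1 of the 4 mouse lines bred for high voluntary wheel running (High Runner, HR), and its vomeronasal organ (VNO) was measured in 2 of the 16 RNA-seq libraries, a pool of 3 males and a pool of 3 females. These 2 libraries were compared with the 6 libraries of HR lines 3, 7 and 8, and the 8 libraries of Control lines 1, 2, 4 and 5 served as a background. The members were taken from the line number and sex in the sample labels, and no measured value was used to choose them. All mice came from an outbred Hsd:ICR background, were 12 weeks old and belonged to generation 88, and the Control lines were bred without selection. The sample labels name no treatment, and the study's methods do not state whether the sequenced mice had access to wheels. Each line is a single closed breeding population, so a difference of line 6 is a difference of 1 line. The question was which genes line 6 expressed at another level than the other HR lines in both pools, that is, line-private expression.

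The VNO lies at the base of the nasal septum and detects pheromones and other social cues. Its sensory neurons fall into an apical layer, which expresses type 1 vomeronasal receptors (Vmn1r) with the G protein subunit Gnai2, and a basal layer, which expresses type 2 receptors (Vmn2r) with Gnao1. Glands beside the organ fill its lumen with mucus that holds lipocalins, small proteins that carry odorants and pheromones.

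The libraries held between 26301664 and 46384480 counts on genes among the 8 HR pools, with 34588784 in the male and 37221497 in the female pool of line 6. Levels are given as TMM-scaled CPM, that is, counts relative to library size. The tissue label was checked with the neuronal marker *Omp*, which stood at 1887 and 1882 CPM in the line 6 pools and between 1600 and 2549 in the other HR pools. *Gnao1* lay at 468 and 454 CPM and *Gnai2* at 1035 and 905 in line 6, inside the range of the other HR pools. *Trpc2*, the ion channel of vomeronasal transduction, was listed with 0 counts in all 16 libraries, as was *Xntrpc*, whose annotation covers all 13281 bases of it. Libraries of HR line 3 stood apart from those of lines 7 and 8, and so did those of line 6. The chi-square per degree of freedom between 2 libraries was 83.6 to 145 for line 6 with line 3 and 269.5 to 421 for line 6 with lines 7 and 8. Line 3 differed from the other HR lines in 596 of 16810 genes tested, against 10 for line 6, 11 for line 7 and 20 for line 8. Results are therefore also given without line 3.

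In the comparison with the other HR lines, 6 genes rose in line 6 and 4 fell at an adjusted *p* under 0.05 in edgeR's quasi-likelihood test. These are 0.0357% and 0.0238% of the 16810 genes tested. At an unadjusted *p* under 0.05 by edgeR, 373 genes (2.22%) lay higher and 515 (3.06%) lower, 888 in all. If no gene differed, a share of about 0.05 would pass this threshold. The 888 genes are near that share and are no list of line 6 genes. Unadjusted counts of the other fits are to be read against the same share. All 10 called genes had both line 6 pools outside the 3 other HR pools of the same sex, and 8 lay outside all 14 other libraries. A call against the other HR pools favours lying outside them, and the shares over all genes are given below. Male and female pools of a line deviated together, with correlations of 0.651 across 14762 genes for line 6 and 0.603 to 0.745 for the other HR lines. With line as a replicate block in limma-voom, 1 gene (*Kcnip4*) was called, and with the pools of each line summed (1 line against 3), 0 were called by edgeR at 304 unadjusted *p* under 0.05. Without both libraries of line 3, 818 genes were called, 533 of them higher, and all 10 were among them. Without both libraries of line 7, 0 were called by edgeR, at 695 unadjusted *p* under 0.05. The *p*-values treat the 2 pools of a line as separate samples and so measure the spread between pools. This spread also holds the differences among HR lines 3, 7 and 8, which were fitted as 1 group. An exact permutation within tables has 16 arrangements and cannot go below a two-sided *p* of 0.125.

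Both line 6 pools lay above the other HR pools of their sex in 1095 genes (6.51%) and below them in 1167 (6.94%). With 16 arrangements within tables, about 1 in 16 genes would lie on each side if pools were independent and no line differed. Both shares are near that share, so these genes are no list of line 6 genes. Both lay above all 14 other libraries in 195 genes (1.16%) and below all of them in 268 (1.59%). The same count over both directions was 463 genes for line 6, 507 for HR line 3, 518 for HR line 7 and 1009 for HR line 8. Each Control line had more such genes than line 6, up to 850. Line 6 thus had the lowest count of the 8 lines among these genes, which were filtered on the HR libraries.

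The called gene with the smallest *p* was *1700019G17Rik* (*Nat8f4*, chr6:85899051-85904884, minus strand), a member of the N-acetyltransferase 8 family. Its level was 1.06 CPM in the male and 1.30 in the female pool of line 6. The other HR males stood at 17.4, 22.7 and 14.1 CPM for lines 3, 7 and 8, and the other HR females at 16.7, 17.3 and 14.3. Neither line 6 pool came near the other 14 libraries, since the Control pools ranged from 15.4 to 21.1. The gene fell 14.4-fold, with a log2 fold change of -3.85 (SE 0.26, adjusted *p* = 0.0149 by edgeR), on 34 and 44 counts in line 6. Without line 3 the log2 fold change was also -3.85.

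*Fggy* encodes a carbohydrate kinase and spans chr4:95557507-95926939 on the plus strand. Line 6 held 8.88 CPM in the male and 8.15 in the female pool. Lines 3, 7 and 8 held 28.7, 21.7 and 25.0 in males and 28.3, 27.1 and 27.5 in females. The groups did not overlap, and the Control pools, at 26.1 to 31.6 CPM, lay with the other HR lines. The log2 fold change was -1.63 (SE 0.14, adjusted *p* = 0.0199 by edgeR), 3.10-fold lower.

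*Fbxo44* (chr4:148152800-148160482, minus strand) and *Fbxo4* (chr15:3965445-3979573, minus strand) encode F-box proteins, the subunits of SCF ubiquitin ligases that bind the substrate. *Fbxo44* stood at 3.50 CPM in the male and 3.75 in the female pool of line 6. The other HR pools lay between 10.8 and 16.7 CPM and the Control pools between 8.89 and 19.9, so line 6 was below every other library. It fell by 1.90 on the log2 scale (SE 0.19, adjusted *p* = 0.0388 by edgeR). *Fbxo4* stood at 4.59 and 5.02 CPM in line 6, 11.1 to 13.6 in the other HR pools and 10.33 to 14.3 in Control pools. It fell by 1.38 on the log2 scale (SE 0.15, adjusted *p* = 0.0444 by edgeR). Reads with any mismatch to the reference genome were dropped by the authors, and the part of lost reads in these lower counts was not tested.

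The start of *Fbxo44* lies 138 bases from the start of *Fbxo2*, another F-box gene (chr4:148160621-148166424) transcribed the other way, which is known for binding glycoproteins in neurons. *Fbxo2* held 3.47 CPM in the male and 6.49 in the female pool of line 6. In lines 3, 7 and 8 it held 18.7, 25.2 and 39.5 in males and 17.7, 27.7 and 25.9 in females. Line 6 was below all 14 other libraries, but the gene did not pass the test (log2 fold change -2.38, SE 0.42, adjusted *p* = 0.209 by edgeR). Control line 1 came closest, at 8.98 and 9.38 CPM. The promoter windows of this pair are shown because the pair lay low together, and that of *1700019G17Rik* because it had the smallest *p*. The windows are from RefSeq (GRCm38.p6), with capitals for each match on either strand to the TATA box with the letters TATAAA, to the GC box with the letters GGGCGG, or to the CCAAT box.
Fbxo44, chr4:148160045-148160344, minus strand: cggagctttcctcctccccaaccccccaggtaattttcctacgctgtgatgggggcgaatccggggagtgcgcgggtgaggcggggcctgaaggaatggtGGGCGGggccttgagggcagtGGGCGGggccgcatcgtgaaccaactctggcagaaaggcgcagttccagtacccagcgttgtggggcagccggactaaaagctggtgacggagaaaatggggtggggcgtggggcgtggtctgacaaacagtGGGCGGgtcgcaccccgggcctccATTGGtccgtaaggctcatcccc
Fbxo2, chr4:148160418-148160717, plus strand: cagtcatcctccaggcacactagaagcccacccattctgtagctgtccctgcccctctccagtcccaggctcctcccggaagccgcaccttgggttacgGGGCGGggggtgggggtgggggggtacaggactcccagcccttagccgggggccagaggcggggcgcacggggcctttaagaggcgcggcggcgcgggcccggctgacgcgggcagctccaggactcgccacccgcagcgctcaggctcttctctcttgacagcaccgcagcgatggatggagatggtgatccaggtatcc
1700019G17Rik, chr6:85904889-85905188, minus strand: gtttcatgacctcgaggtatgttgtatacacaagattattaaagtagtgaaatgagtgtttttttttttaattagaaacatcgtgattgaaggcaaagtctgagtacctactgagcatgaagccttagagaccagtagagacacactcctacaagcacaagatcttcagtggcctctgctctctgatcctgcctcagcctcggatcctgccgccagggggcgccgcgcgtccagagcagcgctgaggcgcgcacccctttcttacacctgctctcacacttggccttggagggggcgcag
The *Fbxo44* window, 1 of 3 listed for that gene, held 3 GC boxes and 1 CCAAT box, and the *Fbxo2* window held 1 GC box. This *Fbxo44* window lies inside the gene and does not cover the start beside *Fbxo2*, so its boxes are not those of that start. Of all 32851 windows of this length, 35.7% hold a GC box, 37.4% a CCAAT box and 13.6% a TATA box. The *1700019G17Rik* window held none of the 3, which says only that these letters are not in this window. The share of G and C was 65.3% and 69.0% in the F-box windows and 51.0% in the third, against a median of 52.7% over all windows.

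*Kcnip4* (chr5:48389502-49524907, minus strand) encodes an auxiliary subunit of Kv4 potassium channels. It stood at 14.8 CPM in the male and 13.4 in the female pool of line 6. The other HR males held 1.49, 1.48 and 2.12 CPM and the females 1.54, 1.69 and 2.47 for lines 3, 7 and 8. The HR groups did not overlap, and the gene rose 7.78-fold, with a log2 fold change of 2.96 (SE 0.23, adjusted *p* = 0.0198 by edgeR). Control line 4 also stood high, at 5.80 and 12.9 CPM, while the other Control pools were at or below 2.50. Against the Control lines *Kcnip4* did not pass the test (log2 fold change 1.97, adjusted *p* = 0.842 by edgeR). Of the 10 called genes, *Kcnip4* alone also passed with line as a replicate block (adjusted *p* = 0.0273 by limma-voom).

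*Ptprn2* (chr12:116485720-117276849, plus strand) encodes a receptor-type phosphatase family protein of dense-core vesicles. It stood at 27.2 and 22.3 CPM in line 6, at 7.76, 8.99 and 7.67 in the males and at 6.25, 8.88 and 7.10 in the females of lines 3, 7 and 8. It rose by a log2 fold change of 1.66 (SE 0.15, adjusted *p* = 0.0248 by edgeR). The 8 Control pools lay between 4.26 and 11.96 CPM, all below line 6.

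*Pld5* (chr1:175962306-176275312, minus strand) belongs to the phospholipase D family and is thought to lack its catalytic activity. The line 6 pools held 8.82 and 9.12 CPM. Those of lines 3, 7 and 8 held 0.521, 0.897 and 0.792 in males and 0.184, 0.654 and 0.745 in females. Its level was low in the other lines, with 5 to 37 counts per pool against 282 and 309 in line 6. The log2 fold change was 3.82 (SE 0.41, adjusted *p* = 0.0444 by edgeR), and the Control pools held 0.454 to 2.03 CPM.

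*Zfp729a* (chr13:67612763-67637791, minus strand), a zinc finger gene, stood at 52.4 and 45.5 CPM in line 6, 16.2 to 24.6 in the other HR pools and 15.2 to 29.8 in the Control pools. It rose by a log2 fold change of 1.38 (SE 0.15, adjusted *p* = 0.0444 by edgeR). Another annotated gene shares 25007 bases with it on the same strand, and zinc finger genes of this cluster are close in sequence, so its count is uncertain. The non-coding *2700054A10Rik* (chr17:13482553-13668891) stood at 56.7 and 27.4 CPM in line 6 and at 4.27 to 10.06 in the other HR pools. It rose by a log2 fold change of 2.63 (SE 0.29, adjusted *p* = 0.0444 by edgeR). It was not private to line 6, because Control line 2 held 48.7 and 42.2 CPM. Another non-coding gene shares 179619 bases with *2700054A10Rik* on the same strand, and the pseudogene *Smok4a* shares 6978 on the other. The count of *2700054A10Rik* is therefore uncertain too.

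*Gm5938*, a gene of the odorant-binding protein group on the X chromosome (chrX:78125467-78130403), stood at 41.3 CPM in the male and 820 in the female pool of line 6. Males of lines 3, 7 and 8 held 1.96, 0.170 and 1.12 CPM, and females of lines 3 and 8 held 7.98 and 2.18 CPM. The female pool of line 7 was the highest of these. It is given as 479 raw counts and not in CPM, in a library where 3 counts are 0.06325 CPM. Both pools of line 6 lay above their own sex, and the male pool lay below the highest Control pool, at 57.4. The log2 fold change was 6.25 (SE 0.69, adjusted *p* = 0.0444 by edgeR). Genes of this group are close in sequence, so counts may be split among them, and the secretory content of the pools is described with the lipocalins.

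**Figure D1:**
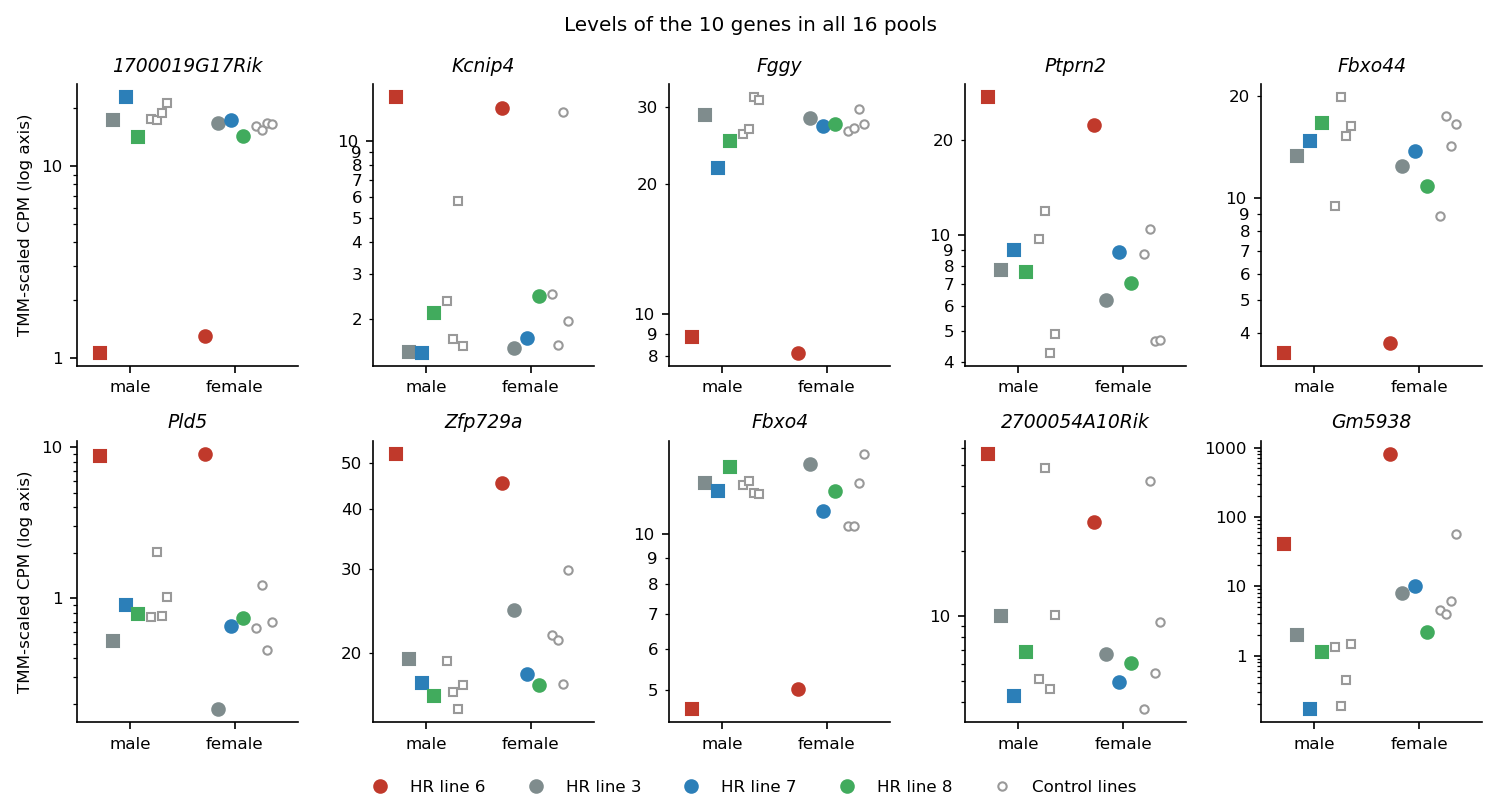
CPM (log axis) of the 10 called genes in all 16 pools, with squares for male and circles for female pools, 1 point per pool of 3 mice. Both line 6 pools (red) lie outside the other HR pools (grey, blue, green) of their sex in each panel, and open symbols show Control pools.

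Neighbouring genes of the 10 were examined within 1 Mb. Of 169 such genes, 29 (17.2%) had an unadjusted *p* under 0.05 with line 6 outside the other HR pools in each sex, against 827 of all 16810 genes tested (4.92%). These 29 were spread unevenly. *Fbxo44* had 11 of 31 neighbours of this kind and *Gm5938* 5 of 7, while *Pld5* had 0 of 9.

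All 11 marked neighbours of *Fbxo44* lay low in line 6, as it did. With *Fbxo44* itself, their starts fell between -518 and 0.14 kb of its start. *Gm13152*, at -668 kb, was also low (log2 fold change -2.04, SE 0.80) but not marked, so no end of the low stretch is shown on that side. The 13 genes tested towards higher coordinates, from 284.3 kb on, had log2 fold changes from -0.25 to 0.34. The low stretch was not uniform, since it also held *Nppa* (log2 fold change 0.46, SE 0.56), *Rps19-ps3* (0.44, SE 0.26), *Plod1* (0.20, SE 0.18) and *Clcn6* (0.02, SE 0.12). *Mad2l2*, a subunit of DNA polymerase zeta, held 15.7 and 15.6 CPM in line 6 and 25.3 to 40.2 in the other HR pools (log2 fold change -1.10, SE 0.21, adjusted *p* = 0.247 by edgeR). *Agtrap*, which binds the angiotensin II receptor, held 60.5 and 61.9 CPM against 91.0 to 129 (log2 fold change -0.74, SE 0.15). *Fbxo6*, a further F-box gene, held 18.1 and 19.7 CPM against 24.4 to 36.4 (log2 fold change -0.73, SE 0.17). These 3 and *Fbxo2* did not pass the test over all genes.

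The marked genes furthest from *Fbxo44* were 2 zinc finger genes. *Gm13157* (*Zfp984*) held 14 and 17 counts in line 6 and 133 to 398 in the other HR pools. *2610305D13Rik* (*Zfp979*) had 0 counts in both line 6 pools, which allows up to 0.0938 and 0.0885 CPM at 3 counts, and 9 to 36 counts in the others. For a gene at 0 the fitted fold change depends on the prior count and is no bound. *2610305D13Rik* was also low in Control line 1, whose pools lay on the side of line 6, as they did for *Fbxo2* and *Miip*.

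**Figure D2:**
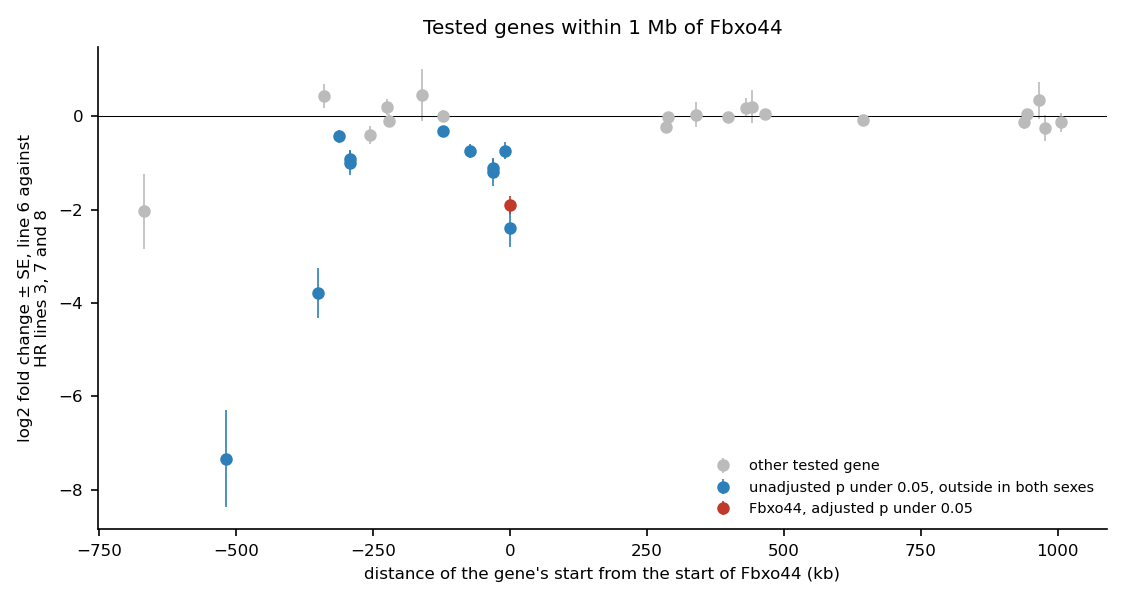
Log2 fold change (± SE) of line 6 against HR lines 3, 7 and 8 for the tested genes within 1 Mb of *Fbxo44*, by distance of each gene's start in kb (positive towards higher coordinates). All 12 marked genes lie low between -518 and 0.14 kb, and the 13 genes at higher coordinates lie between -0.25 and 0.34. *Gm13152*, at -668 kb, lies low (-2.04) but is not marked.

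Beside *Ptprn2*, the non-coding *D430020J02Rik* lies 80509 bases away. It held 80.8 and 76.0 CPM in line 6 and 11.9 to 28.5 in the other HR pools (log2 fold change 1.86, SE 0.27, adjusted *p* = 0.113 by edgeR). The genes beside *Fbxo4* went both ways. *A630020A06* held 1.501 and 1.564 CPM against 3.14 to 3.81, and *BC037032* held 13.1 and 11.5 CPM against 5.31 to 9.31. Of the 5 marked neighbours of *Gm5938*, 4 lay high, among them *Obp1a*, an odorant-binding protein, with 761 and 5722 CPM in line 6 and 10.9 to 274 in the other HR pools.

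Vomeronasal receptors detect the social cues that reach the organ. Of 158 *Vmn1r* genes tested, 0 passed the edgeR test, and 35 lay below and 2 above the other HR pools in both sexes (22.2% and 1.27%, against 6.94% and 6.51% of all genes). Their median log2 fold change was -0.25, against -0.02 over all genes, with 31 below and 0 above zero at an unadjusted *p* under 0.05. The median difference was -0.06 in the male and -0.32 in the female table, and the summed level was 2392 CPM in the male pool of line 6, above the 2200 of line 3, and 2013 in the female pool, the lowest of the HR pools. Both pools of line 6 lay under the mean of the other HR lines in 89 genes and over it in 28. Without line 3, 76 of the 158 lay below and 2 above, against 22.9% and 23.6% of all genes. *Gnai2*, the G protein subunit of the same neurons, had a log2 fold change of -0.23 (SE 0.20), *Omp* of -0.16 (SE 0.24), and their part in the receptor values was not tested. In tissue RNA, fewer neurons of a type and less RNA per neuron cannot be told apart.

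The receptors with both line 6 pools below the others were spread over chromosomes. They were 15 of 48 tested on chromosome 6, 8 of 34 on chromosome 13, 8 of 60 on chromosome 7 and 3 of 14 on chromosome 17. The share was 22.2% over all *Vmn1r* genes tested and 6.94% over all genes, and that of chromosome 7 was under the family share. On chromosome 6, *Vmn1r34* held 6.41 and 4.90 CPM in line 6. The other HR pools held 15.2, 21.9 and 19.9 in males and 14.2, 21.3 and 23.8 in females of lines 3, 7 and 8. Line 6 lay below all 14 other libraries, with a log2 fold change of -1.79 (SE 0.27, adjusted *p* = 0.118 by edgeR). Its neighbour *Vmn1r32* held 43.4 and 45.6 CPM against 73.3 to 106 (log2 fold change -0.998, SE 0.16, adjusted *p* = 0.144 by edgeR), and *Vmn1r37* 19.8 and 18.4 CPM against 37.2 to 65.5. *Vmn1r223* on chromosome 13 held 0.313 and 0.148 CPM in line 6, and line 8 was also low at 0.460 and 0.425, while lines 3 and 7 held 4.91 to 9.60. The receptors belong to families of close paralogs, so their counts are uncertain where reads are shared.

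Of 118 *Vmn2r* genes tested, 0 passed the edgeR test. Line 6 lay above the other HR pools in both sexes in 14 (11.9%) and below in 1 (0.847%), against 6.51% and 6.94% of all genes. The median log2 fold change was 0.10, with a median difference of 0.25 in the male and 0.03 in the female table. *Vmn2r58* held 57.4 and 53.0 CPM in line 6 and 26.3 to 35.4 in the other HR pools (log2 fold change 0.87, SE 0.10, adjusted *p* = 0.0693 by edgeR). Both pools of Control line 5 lay past the midpoint towards line 6 for *Vmn2r58*, so its level was not private to line 6. In the cluster on chromosome 5, 5 of 11 lay above, against 11.9% of the *Vmn2r* genes and 6.51% of all genes. Among them *Vmn2r10* held 37.4 and 33.0 CPM, above all 14 other libraries, against 7.76 to 15.96 in the other HR pools (log2 fold change 1.53, adjusted *p* = 0.221 by edgeR). *Vmn2r9* held 51.4 and 51.9 CPM, against 10.8 to 39.1. Without line 3, 16 lay above and 17 below, against 23.6% and 22.9% of all genes. Of the 19 receptors that the study selected on these libraries, 4 lay above (21.1%, against 6.51% of all genes) and 0 below. That list is not independent of these data.

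**Figure D3:**
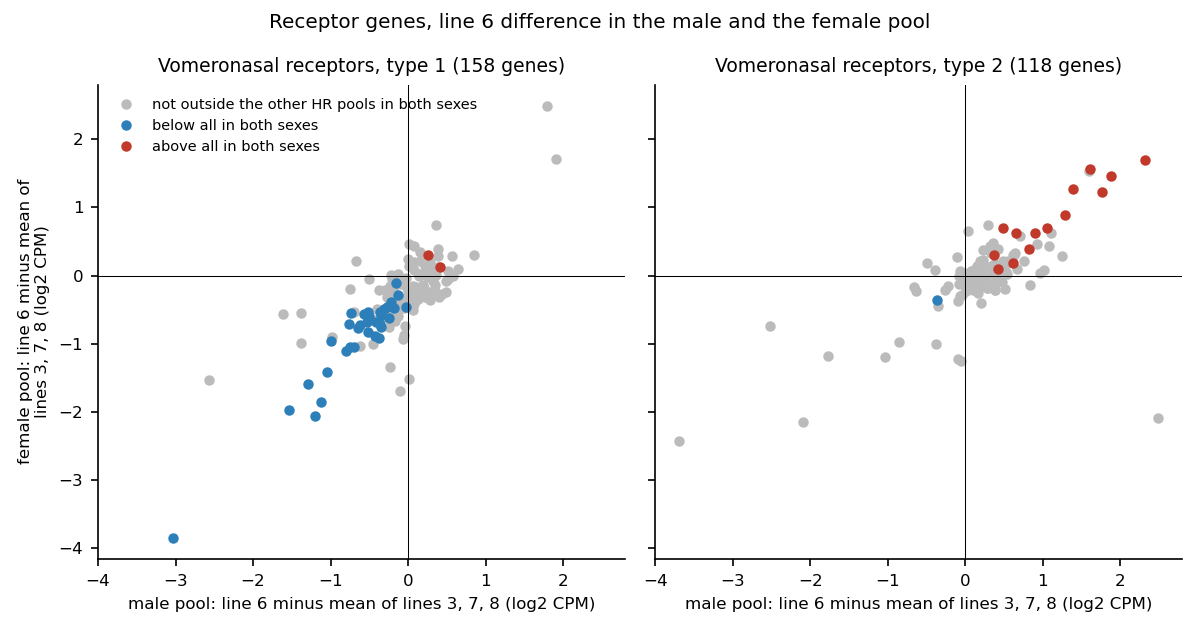
Difference of line 6 from the mean of HR lines 3, 7 and 8 (log2 CPM) in the male pools (x) and female pools (y), 1 point per receptor gene. Of 158 *Vmn1r* genes 35 lie below all other HR pools in both sexes (blue) and 2 above (red), and of 118 *Vmn2r* genes 1 lies below and 14 above.

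The other genes of vomeronasal sensing did not pass the test either. Of 16 transduction genes, 0 lay outside the other HR pools in both sexes, and their log2 fold changes ran from -0.29 to 0.22. Of 9 *H2-Mv* genes, the MHC class Ib molecules of basal neurons, 2 lay below (22.2%, against 6.94% of all genes). *H2-M1* held 51.1 and 54.6 CPM, against 61.8 to 174 in the other HR pools. Of 6 formyl peptide receptors, 1 lay below (16.7%). Of 18 genes of neurogenesis and maturation, 1 lay below (5.56%, against 6.94% of all genes). Of 42 odorant receptors tested, 2 lay above and 10 below (4.76% and 23.8%, against 6.51% and 6.94% of all genes), at a summed level of 88.1 and 102 CPM in line 6 and 58.7 to 111 in the other HR pools. None of the trace amine receptors had a count that passed the filter.

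Genes of the major histocompatibility complex, which present peptides to T cells and are highly variable between mice, lay both high and low. Of 29 genes of antigen presentation, 0 passed the test, 5 lay below and 3 above (17.2% below, against 6.94% of all genes). *H2-T23*, a class Ib molecule, held 2.97 and 3.31 CPM in line 6, against 28.8, 19.6 and 15.5 in the males and 28.3, 22.4 and 8.77 in the females of lines 3, 7 and 8. It lay below all 14 libraries, and passed the test against the Control lines (log2 fold change -2.87, SE 0.21, adjusted *p* = 3.0e-04 by edgeR) but not against the other HR lines (-2.71, adjusted *p* = 0.221 by edgeR). The antisense gene *A930015D03Rik*, which overlaps *H2-T23* and *H2-T24*, held 4 and 1 counts in line 6 and 50 to 218 in the other HR pools. It also passed against the Control lines (log2 fold change -5.77, SE 0.40, adjusted *p* = 2.8e-04 by edgeR). Since the use of strand in the counting is not given in the sources used here, reads of the overlapping pair may not be told apart.

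The pseudogene *H2-Bl*, 47259 bases from *H2-T23*, held 1 count in each line 6 pool and 50 to 197 in the other HR pools. *H2-Eb1*, a chain of a class II molecule, held 15.0 and 14.9 CPM in line 6 and 39.1 to 189 in the other HR pools, but the lowest Control pool held 9.26. In contrast, *H2-T10* held 10.22 and 9.15 CPM in line 6, against 1.87 to 7.28 in the other HR pools. The classical molecules lay inside the range of the other HR pools, *H2-K1* at 86.6 and 89.2 CPM against 42.2 to 178 and *H2-D1* at 106 and 98.3 against 32.8 to 124. Close paralogs share sequence in this region too, and the part of reads dropped for mismatches was not tested.

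Interferon-stimulated genes lay low in line 6 as a group. Of 20 tested, 0 passed the test over all genes and 13 lay below the other HR pools in both sexes (65% against 6.94% of all genes), with 0 above. All 20 log2 fold changes were negative, from -1.23 to -0.12, with a median of -0.48. Without line 3, 14 lay below, against 22.9% of all genes, and the median was -0.31. *Oasl2*, an antiviral oligoadenylate synthetase-like gene, held 55.9 and 53.8 CPM in line 6. The other HR pools held 79.0, 78.7 and 87.2 in males and 89.6, 101 and 86.1 in females of lines 3, 7 and 8, and the Control pools 67.0 to 102. Its log2 fold change was -0.67 (SE 0.10, adjusted *p* = 0.118 by edgeR). Markers of T and myeloid cells summed to 316 and 150 CPM in line 6, inside the 90.8 to 529 of the other HR pools. The summed interferon level was 257 and 282 CPM in line 6, 316 to 434 in the other HR pools and 293 to 447 in the Control pools.

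**Figure D4:**
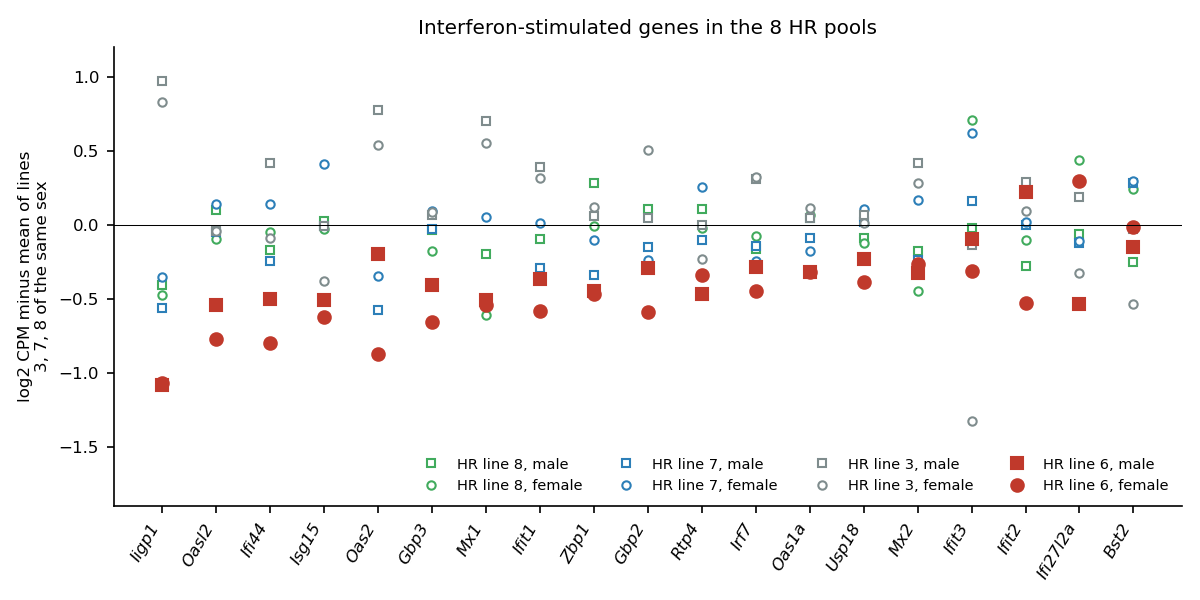
Log2 CPM of 19 of the 20 interferon-stimulated genes in the 8 HR pools, relative to the mean of lines 3, 7 and 8 of the same sex. Filled red symbols are line 6, which lies below the other HR pools of its sex in 12 of these genes, and in *Iigp1*, *Oas2* and *Mx1* the line 3 pools (grey) lie highest.

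Secretory genes lay high in line 6 and also in line 3. The 10 secreted lipocalins tested summed to 95550 CPM in the male and 133000 in the female pool of line 6. Line 3 held 158100 and 52640, while the pools of lines 7 and 8 held 1436 to 11050. Control pools ranged from 9155 to 177900, so line 6 was not outside them. Of these 10 genes 0 passed the test, 4 lay above (40%, against 6.51% of all genes) and 0 below. Their median log2 fold change was 2.38, or 3.91 without line 3. *Mup5*, a major urinary protein gene, held 691 and 3744 CPM in line 6, above all 14 other libraries, against 8.24 to 184 in the other HR pools (log2 fold change 4.94, adjusted *p* = 0.435 by edgeR). *Obp2a*, the gene with the most counts in both line 6 pools, held 39030 and 48320 CPM in line 6, inside the 502 to 64180 of the other HR pools. Urinary proteins and odorant-binding proteins are paralogous, so their single values are uncertain.

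Markers of gland and goblet cells moved with these genes, and their part in the lipocalin values and in *Gm5938* was not tested. Of 11 such markers, 4 lay above (36.4%, against 6.51% of all genes) and 0 below. Their summed level was 30350 and 25630 CPM in line 6, 35970 and 19870 in line 3 and 1353 to 3829 in lines 7 and 8. *Ltf* (lactoferrin) held 5753 and 4222 CPM in line 6 and 561 to 5562 in the other HR pools, and *Dmbt1* 23230 and 20130 CPM against 317 to 28800. BPI fold proteins, also secreted in the nose, summed to 1073 and 724 CPM in line 6, 1892 and 766 in line 3 and 17.4 to 181 in lines 7 and 8. Of 9 tested, 2 lay above (22.2%, against 6.51% of all genes). *Crisp1*, a cysteine-rich secretory protein, held 16.9 and 148 CPM in line 6 and 0.0767 to 2.46 in the other HR pools, with up to 18.4 in a Control pool (log2 fold change 6.11, SE 0.88, adjusted *p* = 0.113 by edgeR). *Scgb2b24*, a secretoglobin, had 10 and 106 counts in line 6 and 0 in the other 6 HR pools, which allows up to 0.110 CPM at 3 counts.

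**Figure D5:**
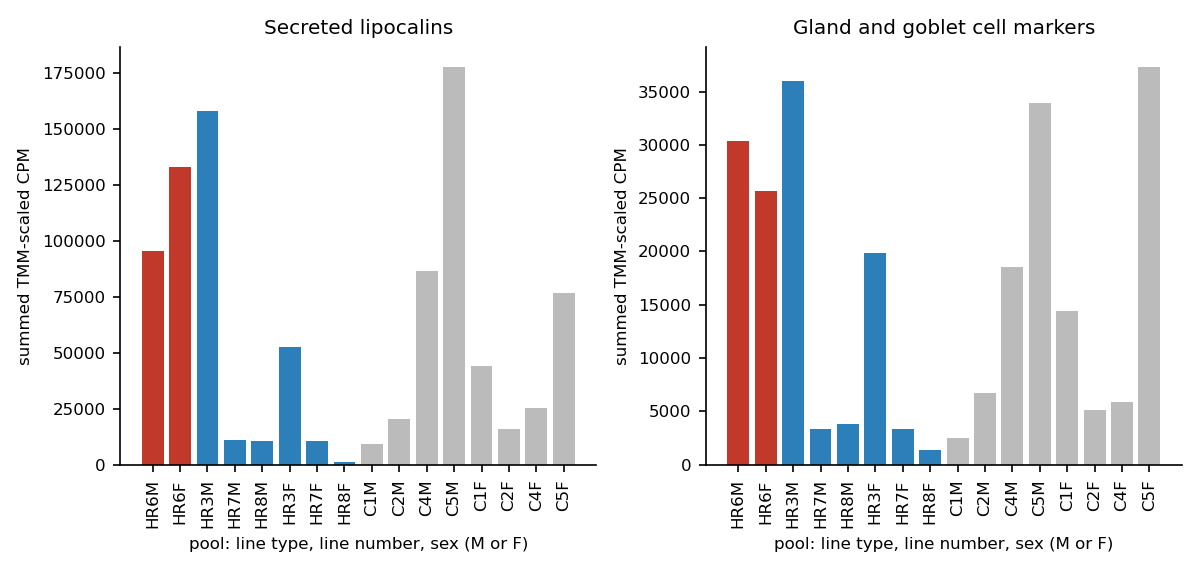
Summed CPM of secreted lipocalins (left) and gland and goblet cell markers (right) in each pool, 1 bar per pool without error. Both line 6 bars (red) and both line 3 bars lie above all bars of lines 7 and 8, and some Control pools (grey) reach the level of line 6.

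Enzymes that modify small molecules lay on both sides. Of 47 cytochromes P450, 6 lay above and 4 below (12.8% and 8.51%), and of 37 conjugation enzymes 1 above and 5 below (2.7% and 13.5%), against 6.51% and 6.94% of all genes. *Sult1e1*, the estrogen sulfotransferase, held 40.7 and 43.9 CPM in line 6, below all 14 other libraries, and passed the test against the Control lines only (log2 fold change -1.27, adjusted *p* = 0.0119 by edgeR). Of 368 zinc finger genes, 31 lay above and 32 below, shares of 8.42% and 8.70% near those of all genes, and *Zfp729a* was the 1 that passed the test. Of 15 immediate early genes, 2 lay below (13.3%, against 6.94% of all genes). These were *Egr1* at 7.03 and 5.64 CPM against 7.45 to 38.8 and *Fos* at 2.66 and 2.21 against 2.77 to 23.7. The list summed to 211 CPM in the male and 210.9 in the female pool of line 6, inside the 200.2 to 427.9 of the other HR pools. Among markers of cells around the organ, 0 of 11 muscle, 0 of 10 ciliated, 0 of 7 plasma and B cell, 0 of 15 T and myeloid and 0 of 2 erythroid genes lay outside in both sexes. Without line 3, 8 of the 10 ciliated (median log2 fold change 0.73), 6 of the 15 T and myeloid and 3 of the 11 muscle markers lay above, against 23.6% of all genes. In cartilage and bone 1 of 12 lay above (8.33%, against 6.51% of all genes), *Col2a1* at 2.69 and 3.25 CPM against 0.751 to 1.702. In main olfactory neurons 1 of 10 lay above (10%), *Cnga4* at 83.8 and 74.8 CPM against 45.4 to 74.7.

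The 30 genes next in order of *p* had adjusted *p* from 0.0693 to 0.144 by edgeR, 11 of them higher and 19 lower, and they are named after their values were seen. Of these 30, 16 lay outside all 14 other libraries, against 1.16% above and 1.59% below among all genes. Their order by *p* against the other HR pools favours this count. *Hadh*, an enzyme of mitochondrial fatty acid oxidation, held 29.3 and 31.9 CPM in line 6. The other HR pools held 53.7, 58.1 and 55.5 in males and 47.4, 52.9 and 49.5 in females of lines 3, 7 and 8, and the Control pools 47.0 to 57.4. Line 6 was below all of them, and *Hadh* passed against the Control lines (log2 fold change -0.79, SE 0.09, adjusted *p* = 0.0090 by edgeR). *Rttn*, a centriole gene, held 82.1 CPM in the male and 31.7 in the female pool, against 12.7 to 14.9 in the other HR pools, and passed against the Control lines (log2 fold change 1.93, adjusted *p* = 0.0121 by edgeR). *Gsdmc4*, a gasdermin, held 36.1 and 37.3 CPM against 20.2 to 24.9.

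In 14 of the 30, a Control line had both pools on the side of line 6, past the midpoint between line 6 and the other HR lines. Control line 5 did so in 6, among them *Scgn*, *Gmnn* and *Dcdc2a* on chromosome 13. *Scgn*, a calcium-binding protein of neurons, held 41.5 and 40.8 CPM in line 6, 72.3 to 99.8 in the other HR pools and 31.9 in the lowest Control pool. *Gmnn*, an inhibitor of DNA replication licensing, held 2.66 and 3.84 CPM against 7.61 to 10.11. *Dcdc2a*, a doublecortin domain gene, held 134 and 132 CPM against 217 to 307. *Gabrd*, a subunit of GABA-A receptors, held 1.47 and 1.21 CPM against 3.65 to 7.22, and Control lines 2, 4 and 5 lay with line 6. These levels were therefore not private to line 6.

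Against the 8 Control pools, 22 of 16935 genes (0.13%) were called, 7 higher and 15 lower, and 5 of them were among the 10 genes called against the other HR lines. Of the 22, 18 lay outside all 14 other libraries, against 1.16% above and 1.59% below among the 16810 genes of the first comparison. The 22 were called for differing from the 8 Control pools among these 14, which favours this count. The 2 comparisons share the line 6 pools. *Upb1*, which encodes the last enzyme of pyrimidine breakdown, held 15.2 and 17.03 CPM in line 6 and 0.0289 to 0.196 in Control pools (log2 fold change 7.17, SE 0.37, adjusted *p* = 3.6e-05 by edgeR). Lines 7 and 8 also expressed *Upb1* at 4.65 to 14.8 CPM, and line 3 stood at 0.308 and 0.221. *Glrx2*, a mitochondrial glutaredoxin, held 17.9 and 19.4 CPM in line 6 and 37.5 to 51.7 in Control pools, with line 8 close at 19.6 and 23.8. *Vip*, a neuropeptide, held 2.38 and 0.944 CPM in line 6 and at most 0.544 in any other pool.

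Whether the difference of line 6 varied between the male and the female table was tested as an interaction. In the interaction of table and line 6, 0 of 17217 genes were called by edgeR, 63 had an unadjusted *p* under 0.05, and DESeq2 called 1. Line 6 had 1 pool in each table, and the 63 genes are fewer than the share of about 0.05 expected if no gene differed. The test may therefore detect little, and 0 calls do not show that the sexes agree. The male and female tables may coincide with sequencing runs, so sex and run cannot be told apart. Among the 10 called genes, the log2 difference from the other HR lines ranged from -4.00 to 5.68 in males and from -3.57 to 7.18 in females. Its sign was the same in both tables for each gene. The rule that named these genes required line 6 outside in the same direction in each table, so equal signs are no separate evidence.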

How the data were processed

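RNA of the VNO was measured in 16 libraries, each a pool of 3 mice of 1 sex and 1 line. Libraries were made after depletion of rRNA, and 8 were run per lane with 75-nucleotide single reads. The authors aligned reads with STAR 2.6.1d to GRCm38 with 0 mismatches and unique locations only, so a read that crosses a base differing from the reference is lost, which can lower a gene in the line that carries the difference. The count tables hold raw counts per gene as the authors deposited them, and the counting tool, annotation and use of strand are not given in the sources used here. The RPKM tables hold values the authors scaled by gene length and library size, and these deposited RPKM were used as an alternative.

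Both count tables were joined by gene name (24407 genes). Left out were 4 summary entries of the male table (34.9 to 37.3% of a column) and 4 entries of 2 repeated names. The tests were run with edgeR 4.0.16 under R 4.3.3 (TMM, filterByExpr with a minimum count of 10, terms for table and line 6, quasi-likelihood test, Benjamini-Hochberg adjustment, threshold 0.05). Log2 CPM had a prior count of 2. Alternatives were RLE size factors, no filter, DESeq2 1.42.0, limma 3.58.1 voom with line as a block (correlation 0.551), line sums, all 16 libraries, a term for every line, log2(RPKM + 1), log2(RPKM + 0.1) and leaving out each library or line. All 3 tools were also run on simulated counts with known changes, where DESeq2 called more unchanged genes than edgeR did. The simulated libraries were independent, had no line effects and used the dispersions that edgeR estimated. The simulation therefore cannot decide which of the calls on the real libraries are right. The male and female pool of a line share the line number, and line is nested in the groups, so the block entered as a random effect. No HR library was a copy of another, since the chi-square of each pair was at least 31.1 per degree of freedom. Intervals and the limit of 3 counts cover counting error only.

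Named genes were those called with line 6 outside the other HR pools in each table and a mean of at least 1 CPM (up to 12 in each direction), every called list member, members of runs of called genes, and the tissue markers. List members, neighbours and the next 30 genes are named as described beside them, after their values were seen. The comparison, lists and rules were chosen with earlier results of these data known. Positions come from GENCODE M21 on GRCm38 (23951 genes matched). CPM is not scaled by gene length, so levels were compared between libraries and not between genes. Single values of 3 list members or neighbours are not reported here.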

Additional observations from a re-analysis of the deposited data

Results flagged for a closer look

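Among 28 groups of libraries examined for a library far from its group (10 named genes and 4 tissue markers, in 6 other HR and 8 Control pools), 2 passed Dixon's criterion, which chance passes in about 1 of 20 groups. For *Pld5* the female pool of HR line 3 stood at 0.184 CPM, below the other 5 pools of HR lines 3, 7 and 8. For *Omp* the female pool of Control line 5 stood at 1260 CPM, below the other Control pools.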

How the results depend on the processing

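Against the other HR lines 10 genes were called by edgeR, and 150 were called by DESeq2, 21 with all 16 libraries in the fit, 483 with a term for every line, 818 without HR line 3, 0 without HR line 7 (695 at an unadjusted *p* under 0.05), and 0 with the pools of each line summed (304 unadjusted). With line as a replicate block in limma-voom, 1 was called. HR line 6 and the other lines share no replicate number between the groups, so the block holds the 2 pools of a line. Leaving out 1 library gave 0 to 36 calls. The lowest values came without the line 6 male or the line 7 female pool and the highest without the line 3 male pool, and where a line 6 pool was left out, the remaining one was assumed to vary like the other pools. RLE size factors (10), no filter (10), no table term (12) and leaving out HR line 8 (10) stayed within 1.5 times the count, but without HR line 8 only 2 of the 10 were genes called with all lines.

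Against the Control lines, 22 genes were called by edgeR, 150 by DESeq2, 10 without Control line 4, 48 without Control line 5, and 8 to 30 without 1 library, the lowest without the line 6 female and the highest without the Control line 5 female pool. The interaction gave 0 calls by edgeR (63 unadjusted) and 1 by DESeq2. For the 10 named genes, 230 values under an alternative kept their direction. Of the 190 with an adjusted *p*, 90 passed the threshold and 100 did not. In lists, 76 type 1 receptors and 14 interferon-stimulated genes lay below, and 9 lipocalins above, without line 3, an alternative chosen after seeing the data.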
